A study of Mus musculus with 20 samples.

Results

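The unfolded protein response (UPR) begins at sensors in the membrane of the endoplasmic reticulum (ER), and 9 mouse genes for these sensors, for related membrane-bound factors and for the protease that releases them are described here. They were chosen by name, with earlier results of the same data known, and all 9 were found among 21631 protein-coding genes. The values are the positions and widths of ATF4 binding sites in C2C12 cells, an established line of mouse myoblasts of wild-type genotype. The stressed cells were exposed for 6 h to 100 nM thapsigargin, which blocks the calcium pump of the ER and so causes ER stress, and the others for 6 h to DMSO. Binding was mapped by CUT&Tag, in which an antibody against ATF4 guides a transposase that cuts and tags nearby DNA. Each condition was labelled with 2 replicates, but was represented by a single deposited ATF4 peak list, with 8619 peaks in thapsigargin and 803 in DMSO. There is therefore no replicate error on any value below, the read depth is unknown, and no test was run. More peaks in a list can reflect deeper reads or a looser threshold as well as more binding, and the lists cannot tell these apart. The lists measure binding, not RNA, so whether a gene's expression moved, and the identity of the cells by their markers, were not measured.

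In the UPR, unfolded proteins in the ER activate IRE1, PERK and ATF6. IRE1, encoded by Ern1, is a kinase and nuclease that splices the mRNA of Xbp1, whose product is then a transcription factor for folding and degradation genes. PERK, encoded by Eif2ak3, phosphorylates eIF2α, which lowers general translation but raises translation of ATF4. ATF6, and its relative ATF6B, move to the Golgi, where the site-1 protease encoded by Mbtps1 and then the site-2 protease cut them and free the part that enters the nucleus. CREB3, CREB3L1 (OASIS) and CREB3L2 (BBF2H7) are membrane-bound bZIP factors that are freed in the same way. The only protease gene of the group was thus Mbtps1. ATF4 itself lies downstream of PERK, and its peaks at genes of the other branches are described below.

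Of the 9 genes, 6 carried a thapsigargin peak whose centre lay at most 1 kb from an end of the gene, namely Ern1, Xbp1, Eif2ak3, Atf6, Creb3l2 and Mbtps1. Of all protein-coding genes 15.1% did. In DMSO 1 of 9 genes did, Xbp1, against 1.29% of all genes. The remaining Atf6b, Creb3 and Creb3l1 had no peak centre within 1 kb of either end in either condition. By this rule the gene of the sensor itself (Ern1, Eif2ak3, Atf6) carried an ATF4 peak at its end in stressed cells in each branch. None of these sensor genes did so in DMSO, where Atf6 had a peak farther inside the gene. With peak edges within 1 kb Atf6 counted in DMSO too. With centres within 500 bp, only Eif2ak3 of these sensor genes counted in thapsigargin.

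**Figure D1:**
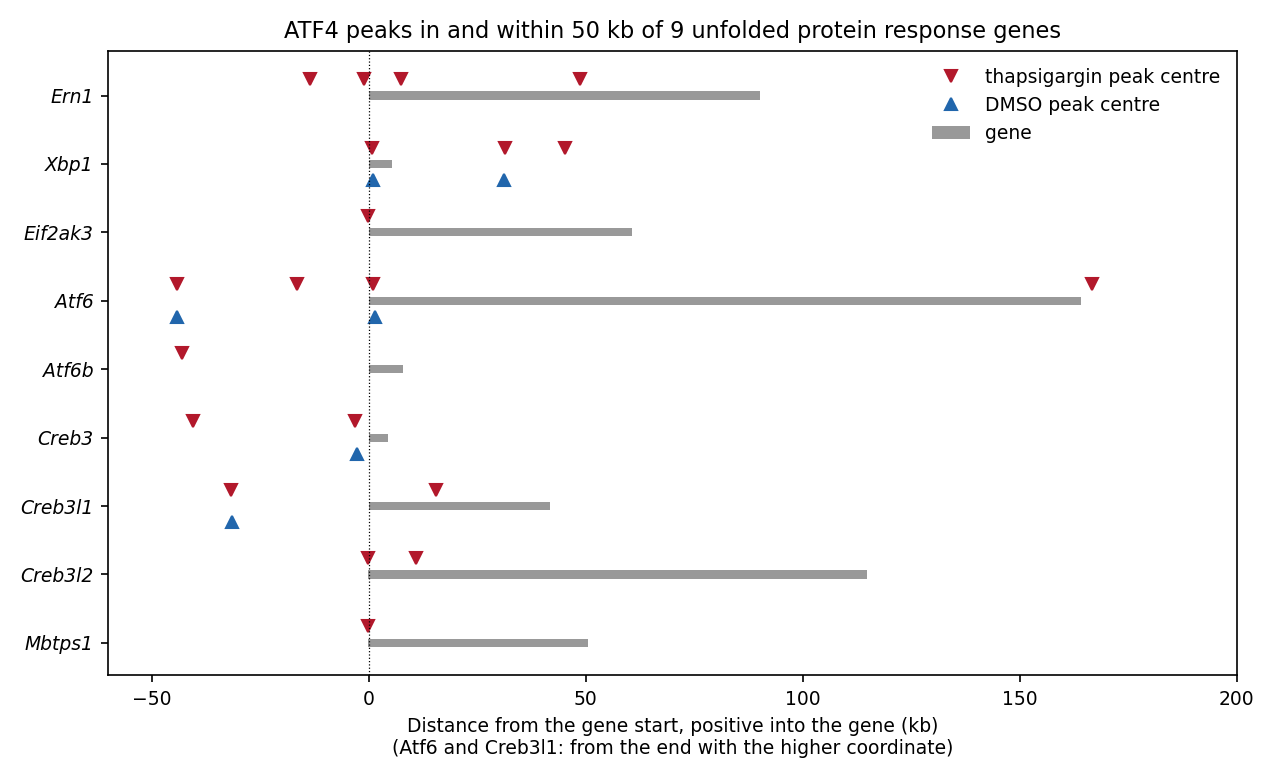
Centres of the ATF4 peaks (red, thapsigargin, above each gene; blue, DMSO, below) around the 9 genes (grey bars), by distance in kb from the gene start, or for Atf6 and Creb3l1 from the end with the higher coordinate, with positive values running into the gene. Every gene has at least 1 of the 20 thapsigargin peaks inside it or within 50 kb, against 51.1% of all protein-coding genes. The 6 DMSO peaks lie around Xbp1, Atf6, Creb3 and Creb3l1. In this reach 8.01% of all genes have a DMSO peak. Of the 20 thapsigargin peaks, 8 are nearer to an end of another protein-coding gene.

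Gene starts and strands were taken from RefSeq promoter windows of the build GRCm38.p6, to which mm10 corresponds, which held 7 of the 9 genes (Ern1, Xbp1, Eif2ak3, Atf6b, Creb3, Creb3l2 and Mbtps1). Each window runs from 250 bp before the start to 50 bp after it. The windows of Ern1, Eif2ak3, Creb3l2 and Mbtps1 lay wholly (100%) inside a thapsigargin peak and are shown for that reason. The lists give only the edges of a peak, so where ATF4 sat within it is not known. They are given 5′ to 3′ on the strand of the gene, and capitals mark CCAAT, the box bound by NF-Y, and TGACG, the half-site of the cAMP response element, each on either strand (ATTGG and CGTCA on the other). They lie at chr11:106487747-106488046 (minus strand), chr6:70844265-70844564 (plus), chr6:37442099-37442398 (minus) and chr8:119558712-119559011 (minus) in this order.
Ern1: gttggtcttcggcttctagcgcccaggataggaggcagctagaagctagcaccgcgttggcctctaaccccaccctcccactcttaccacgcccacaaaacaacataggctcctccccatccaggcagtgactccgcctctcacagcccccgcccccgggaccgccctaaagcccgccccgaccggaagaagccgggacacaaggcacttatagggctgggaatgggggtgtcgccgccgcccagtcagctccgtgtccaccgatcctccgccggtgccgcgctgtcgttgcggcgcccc
Eif2ak3: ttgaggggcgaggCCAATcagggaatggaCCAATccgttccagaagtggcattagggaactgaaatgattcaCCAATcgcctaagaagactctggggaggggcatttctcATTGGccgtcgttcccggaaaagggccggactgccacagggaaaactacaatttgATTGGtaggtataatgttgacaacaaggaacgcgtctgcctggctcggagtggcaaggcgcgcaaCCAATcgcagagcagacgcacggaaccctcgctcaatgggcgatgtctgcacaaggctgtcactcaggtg
Creb3l2: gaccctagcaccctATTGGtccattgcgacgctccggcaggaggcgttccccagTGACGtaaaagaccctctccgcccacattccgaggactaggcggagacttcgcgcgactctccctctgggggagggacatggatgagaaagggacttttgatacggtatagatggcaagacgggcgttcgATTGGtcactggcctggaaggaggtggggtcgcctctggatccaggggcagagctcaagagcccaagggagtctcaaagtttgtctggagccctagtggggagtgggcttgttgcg
Mbtps1: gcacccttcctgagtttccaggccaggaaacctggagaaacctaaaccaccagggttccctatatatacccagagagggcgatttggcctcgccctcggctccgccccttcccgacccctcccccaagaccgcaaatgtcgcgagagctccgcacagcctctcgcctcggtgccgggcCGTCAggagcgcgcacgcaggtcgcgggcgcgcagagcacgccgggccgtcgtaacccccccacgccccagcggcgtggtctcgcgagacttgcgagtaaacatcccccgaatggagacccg

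The Eif2ak3 window held 6 CCAAT boxes, with their first printed base 237, 221, 178, 140, 85 and 20 bases upstream of the start. At least as many were present in 26 of 32851 RefSeq promoter windows (0.0791%). Only the presence of motifs had been planned, and this count was compared for the window with the most boxes among the 7. The Creb3l2 window held 2 and the window of Atf6b, which had no peak, 1, and Ern1, Xbp1, Creb3 and Mbtps1 had none, where 37.4% of all windows had at least 1. The half-site TGACG, a motif added after the others had been searched, was present once each in the windows of Creb3l2 and Mbtps1 and in 20.8% of all windows. The other motifs searched on both strands were absent from all 7 windows. These were TGATGNAAT, the composite element of C/EBP and ATF factors (0.965% of all windows), TGACGTCA, the full cAMP response element (1.79%), TGACGTG, the core of the UPR element (2.01%), and TTGCGCAA, the C/EBP palindrome (0.183%). The ER stress response element, searched as CCAAT followed after 9 bases by CCACG (0.119%), and its second form, ATTGG followed after 1 base by CCACG (0.0365%), were absent too. TGACGTCA and TGACGTG contain the half-site, and the ER stress response elements contain CCAAT or its complement. A match is a description of letters, and these windows are shorter than the peaks.

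At Ern1 (chr11:106397620-106487796, 90.2 kb, minus strand) the thapsigargin list had 4 peaks within 50 kb and the DMSO list had none. The peak at the start spanned chr11:106487427-106490146 and was 2720 bp wide, the rank of 14 among 8619 peaks by width. It reached 2350 bp outside the gene and 369 bp into it, so that most of it lay upstream of the start, with its centre at 990.5 bp. That places it just inside the distance of 1 kb. By width it was exceeded at 1 of the 3267 genes with a thapsigargin peak at an end. Inside the gene, a peak of 535 bp was centred 7.36 kb and another of 1000 bp 48.6 kb from the start. The last one, of 804 bp, lay 13.5 kb upstream, but 887.5 bp from the end of the neighbouring Tex2, so that it stood nearer to that gene. Ends of the non-coding genes Gm36220, Snord104 and Gm22711 lay within 1 kb of its centre too. The nearest DMSO peak centre was 263 kb from an end of Ern1.

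At Xbp1 (chr11:5520641-5525993, 5.35 kb, plus strand), the target of IRE1's nuclease, both lists had a peak near the start. The thapsigargin peak spanned chr11:5520840-5522169 (1330 bp) and the DMSO peak chr11:5520899-5522164 (1266 bp). Unlike the other peaks at ends, these did not cover the end: the thapsigargin peak began 199 bp and the DMSO peak 258 bp inside the gene, with centres 863.5 bp and 890.5 bp downstream of the start. No base of the Xbp1 promoter window lay inside the thapsigargin peak, which began 150 bp beyond it. A second site 31.3 kb downstream of the start also had a peak in both lists, of 1352 bp in thapsigargin and 706 bp in DMSO. It stood nearer to Ccdc117, whose end was 9.72 kb from the thapsigargin centre. Another site, of 841 bp and in thapsigargin alone, lay 3.86 kb from the end of Ankrd36 and 45.2 kb from the start of Xbp1. The end of the non-coding gene Gm39573 lay within 1 kb of its centre.

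At Eif2ak3 (chr6:70844484-70905241, 60.8 kb, plus strand), the gene of PERK, the thapsigargin list had 1 peak and the DMSO list none within 50 kb. The peak spanned chr6:70843747-70844884 and was 1138 bp wide. It covered the end of the gene, with 737 bp outside and 400 bp inside, and its centre lay 168.5 bp from the end. Its width stood at percentile 59.9 of the thapsigargin list, close to the middle of the list, and the nearest DMSO peak centre was 262 kb away. The kinase gene upstream of ATF4 therefore had a single peak of ordinary width, on its start.

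Atf6 (chr1:170704457-170868585, 164 kb) had 4 thapsigargin and 2 DMSO peaks within 50 kb. At its end with the higher coordinate the thapsigargin peak spanned chr1:170866473-170868922, 2450 bp wide and 43 by rank in the list, with 2112 bp inside the gene and 337 bp outside. The end of the non-coding gene Gm9929 lay within 1 kb of its centre too. The DMSO peak, chr1:170866521-170867630 (1110 bp), lay wholly inside it but 955 bp short of the gene end, with its centre at 1509.5 bp. It thus fell just outside the distance of 1 kb, while the thapsigargin centre, at 887.5 bp, fell inside. The thapsigargin peak extended 1292 bp beyond the DMSO peak on the side of the gene end and 48 bp on the other side. A further thapsigargin peak of 1285 bp lay 2.58 kb from the opposite end of Atf6. The other thapsigargin peaks were at neighbours, with 1 of 663 bp inside Dusp12 (384 bp from its end) and 1 of 1461 bp inside Fcrlb. The Fcrlb site also had a DMSO peak, of 687 bp.

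Atf6b (chr17:34647146-34655074, 7.93 kb), the relative of Atf6, was the member farthest from a peak. Its nearest thapsigargin peak (1460 bp) was centred 43.0 kb upstream and only 78.5 bp from the end of Agpat1, so it lay at another gene. The nearest DMSO centre was 347 kb away.

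**Figure D2:**
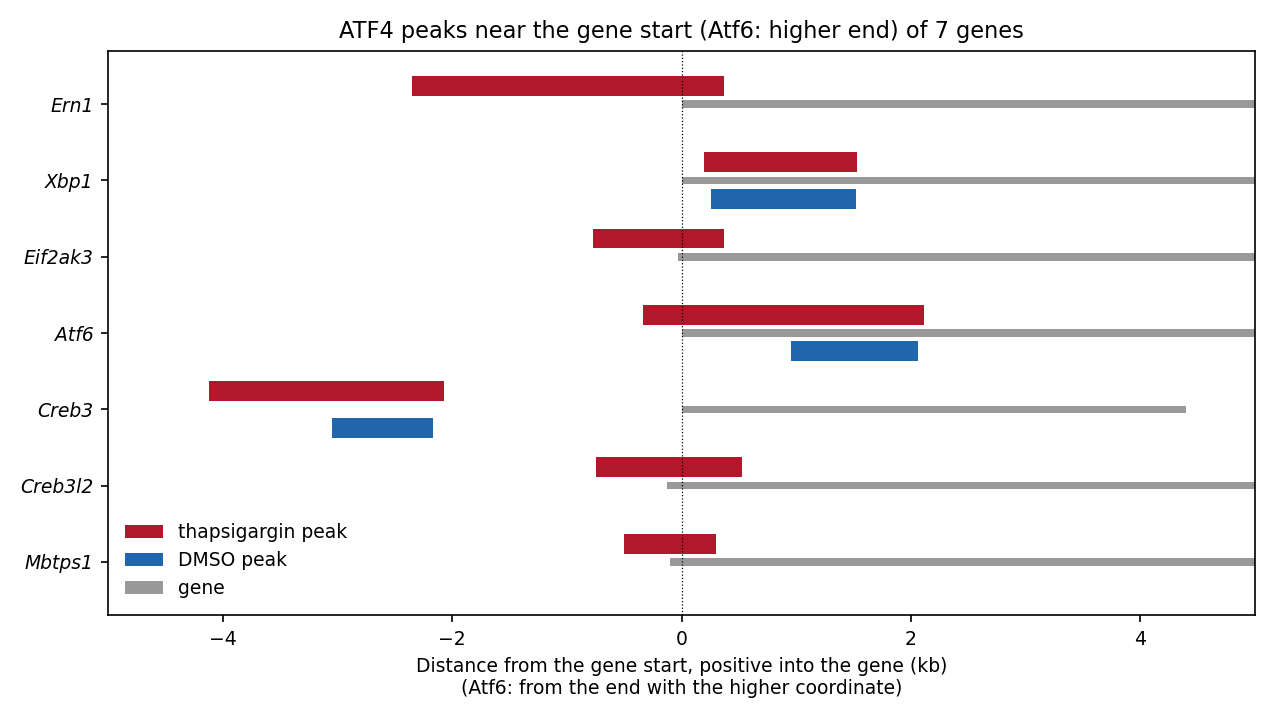
Thapsigargin (red) and DMSO (blue) peaks drawn to scale against the gene start (dotted line; for Atf6 the end with the higher coordinate) of the 7 genes with a peak there or close by, with grey bars for the genes, positive distances in kb running into the gene, and genes cut at 5 kb. The thapsigargin peaks of Ern1, Eif2ak3, Atf6, Creb3l2 and Mbtps1 cross the dotted line, whereas the DMSO peak of Atf6 lies 955 bp inside the gene. Both peaks of Xbp1 begin inside the gene, and those of Creb3 end 2074 bp (thapsigargin) and 2165 bp (DMSO) short of the line.

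The OASIS-type factors differed among themselves. Creb3l2 (chr6:37327255-37442276, 115 kb, minus strand) had a thapsigargin peak of 1276 bp on its start, chr6:37441623-37442898, centred 15.5 bp from the gene end. The end of the non-coding gene Gm33318 lay within 1 kb of its centre too. A second thapsigargin peak, of 863 bp, was centred 10989 bp into Creb3l2. This gene had no DMSO peak within 50 kb, and the nearest was 1312 kb away. Creb3 (chr4:43562658-43567061, 4.4 kb, plus strand) had no peak on its start, but a thapsigargin peak of 2050 bp (chr4:43558535-43560584) and, inside it, a DMSO peak of 887 bp (chr4:43559607-43560493). They were centred 3098.5 bp and 2608 bp upstream of its start, and both lay inside the neighbouring Tln1, whose end was 3.02 kb and 2.53 kb away. The site was therefore nearer to the end of Tln1 than to the start of Creb3 in both lists. Another thapsigargin peak, of 864 bp, lay 40.4 kb upstream of Creb3, inside Tpm2. Creb3l1 (chr2:91982328-92024170, 41.8 kb) had a thapsigargin peak of 859 bp inside the gene, 15.6 kb from its higher end. A site 31.7 kb beyond that end had a peak in both lists, 640 bp in thapsigargin and 866 bp in DMSO.

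Mbtps1 (chr8:119508151-119558864, 50.7 kb, minus strand), the gene of the site-1 protease, had 1 thapsigargin peak and no DMSO peak within 50 kb. The peak, chr8:119558464-119559260, had its centre 2 bp off the gene end and a width of 797 bp, at percentile 24.5 of the list. It was the narrowest of the 6 thapsigargin peaks at ends of the group and the one closest to an end.

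Among the 6 genes with a thapsigargin peak at an end, the widths of these peaks thus ran over 797 bp at Mbtps1, 1138 bp at Eif2ak3, 1276 bp at Creb3l2, 1330 bp at Xbp1, 2450 bp at Atf6 and 2720 bp at Ern1. The median was 1303 bp, against 1037 bp over the 3267 genes with such a peak, each taken at its widest. The Ern1 and Atf6 peaks stood apart from the other 4, being wider than those of 99.9% and 99.6% of these genes, whereas Mbtps1 was above 24.6%. The 14 thapsigargin peaks elsewhere around the 9 genes had a median of 864 bp and ranged from 535 to 2050 bp. Width is not a measure of occupancy, and it depends on read depth. Likeness to Ern1 was taken over the width of the end peak and the number of thapsigargin peaks within 50 kb. The candidates were 2988 other genes with a thapsigargin peak and no DMSO peak at an end. The most like were Ahcyl1 (2181 bp), Gsto2 (2041 bp) and Cnksr3 (2031 bp), each with 4 peaks. Their summed differences from Ern1 were 0.319, 0.414 and 0.421 log2 units over these 2 measures.

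**Figure D3:**
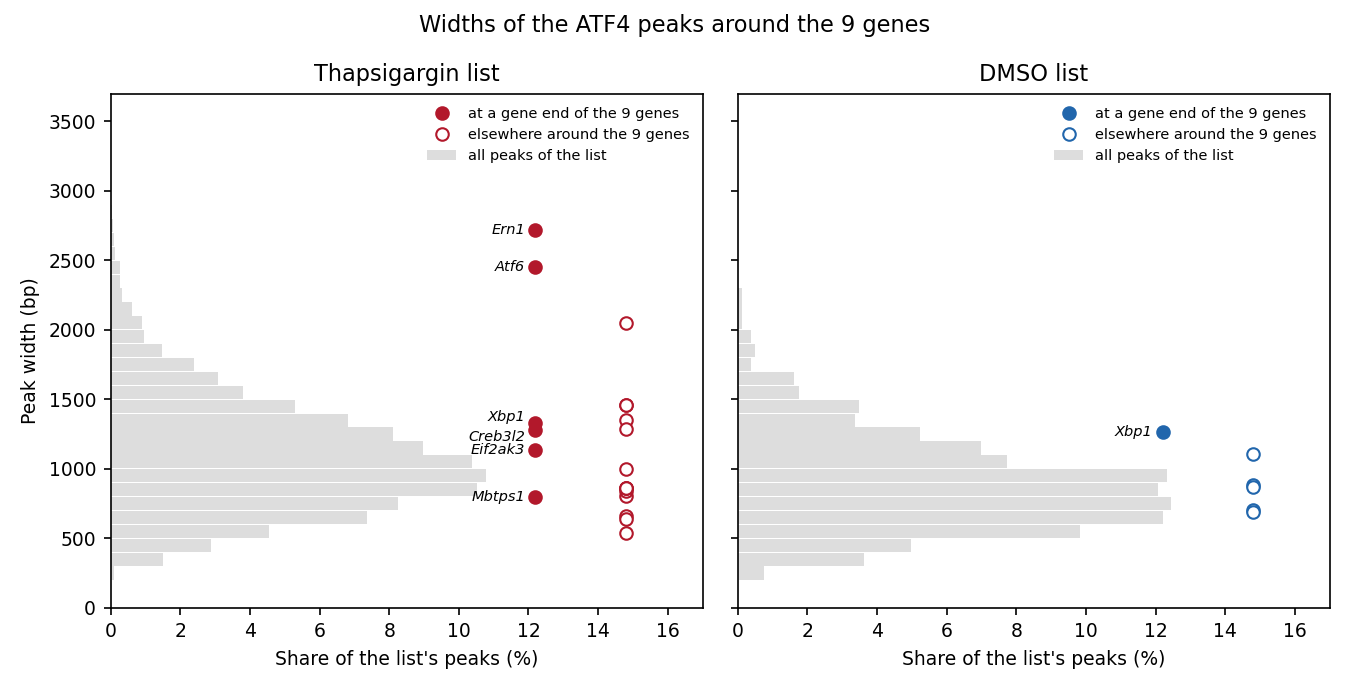
Widths in bp of the ATF4 peaks around the 9 genes (filled circles, at a gene end; open circles, elsewhere), set beside the share in percent of each list's peaks per 100 bp of width (grey bars), for thapsigargin (left) and DMSO (right); the place of the circles along the horizontal axis has no meaning. The thapsigargin peaks at Ern1 (2720 bp) and Atf6 (2450 bp) lie in the upper tail of the list, and the DMSO list has a filled circle for Xbp1 alone (1266 bp).

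All 6 DMSO peaks around these genes overlapped a thapsigargin peak, where 99.5% of the DMSO peaks in the whole list did, so the share was that of the list. Of the 20 thapsigargin peaks 14 had no DMSO partner, where 90.8% of the peaks of the whole thapsigargin list had none. In 5 of the 6 pairs the thapsigargin peak was the wider one and enclosed the DMSO peak. The DMSO peak was enclosed in 88.4% of all 799 pairs, so this share was near that of the lists. The ratio of thapsigargin to DMSO width had a median of 2.02, against 1.56 over 799 pairs. The ratio was 1.92 at the distant site of Xbp1, 2.13 at that of Atf6, 2.21 at the end of Atf6 and 2.31 at the Creb3 site. At the start of Xbp1 the peaks were almost the same, with a ratio of 1.05, 95.2% of the thapsigargin peak shared and centres 27 bp apart, and only 4.38% of all pairs had a lower ratio. The site beyond Creb3l1 was the exception in direction, with a ratio of 0.739: its DMSO peak reached 198 bp and 28 bp past the edges of the thapsigargin peak. The DMSO peak was the wider one in 2.5% of all pairs. The side of the extension was not among the planned measures. Of the enclosing pairs in the whole lists, 18.3% had at least 90% of the extension of the thapsigargin peak on 1 side. Of the 5 enclosing pairs around the 9 genes, 3 did. These were the end of Atf6, with 1292 bp against 48 bp, the Creb3 site, with 1072 bp against 91 bp, and the start of Xbp1, where the extension was small, with 59 bp against 5 bp.

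Away from the ends, 3 of 9 genes (Ern1, Creb3l1 and Creb3l2) had a thapsigargin peak inside the gene and over 1 kb from its ends, against 10.1% of all genes, and 1 of 9 (Atf6) had a DMSO peak there, against 1.3%. The 9 genes had a median length of 50.7 kb and all protein-coding genes 17.3 kb, and longer genes have more room for such peaks. With the flanks of 50 kb included, 9 of 9 genes had a thapsigargin peak and 4 of 9 (Xbp1, Atf6, Creb3 and Creb3l1) a DMSO peak, against 51.1% and 8.01% of all genes. Ern1 and Atf6 had 4 thapsigargin peaks each within that reach, a number met by 3.26% of all genes. Per 100 kb of gene and flanks, the 9 genes had 1.39 peaks in thapsigargin and 0.417 in DMSO, and all genes 0.605 and 0.0591. Of the 20 thapsigargin peaks, 8 were nearer to an end of another protein-coding gene than to one of the 9, as were 3 of the 6 DMSO peaks, so the wider reach says less about the 9 genes than the peaks at their ends.

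**Figure D4:**
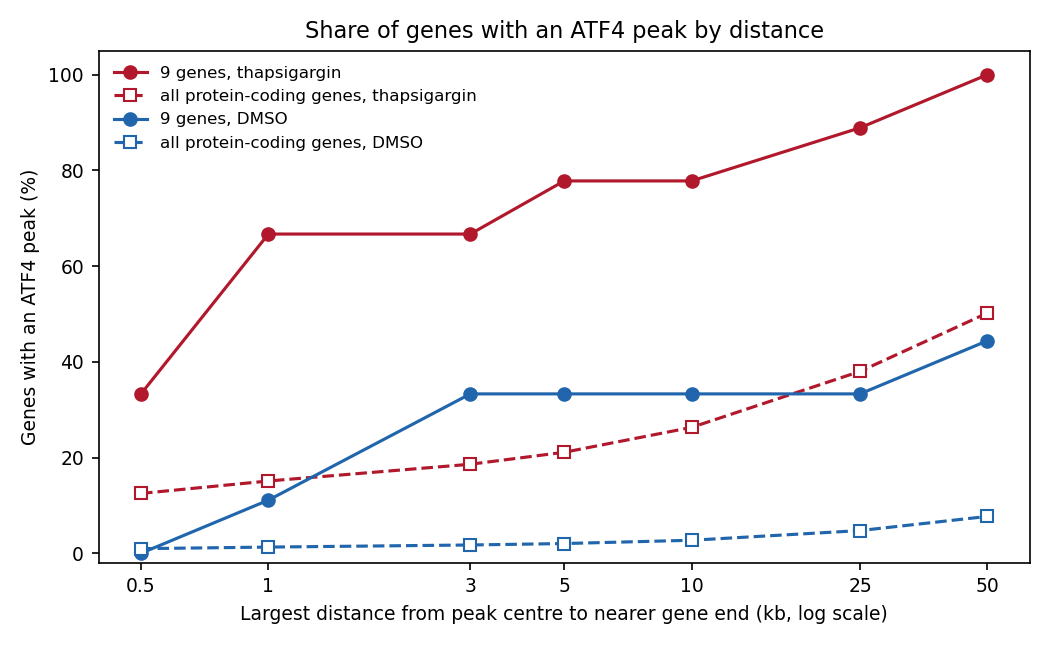
Share of genes in percent with an ATF4 peak centred within a given distance of the nearer gene end (kb, log scale), for the 9 genes (filled circles) and all protein-coding genes (open squares), in thapsigargin (red) and DMSO (blue). At 0.5 kb 33.3% of the 9 genes have a thapsigargin peak and 0% a DMSO peak, where all genes have 12.5% and 0.962%. At 1 kb the shares are 66.7% and 11.1%, against 15.1% and 1.29% of all genes. At 3 kb they are 66.7% and 33.3%, against 18.6% and 1.73%.

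Other genes of the pathway were taken from 4 lists of textbook genes. Of the PERK branch, 7 of 9 genes had a thapsigargin peak at an end and 3 of 9 a DMSO peak, against 15.1% and 1.29% of all genes. The widest thapsigargin peaks were at Ddit3, the gene of CHOP (2420 bp), Trib3, a pseudokinase (1615 bp), Nfe2l2, the gene of the antioxidant factor NRF2 (1485 bp), and Ppp1r15a, the stress-induced subunit of the eIF2α phosphatase (1446 bp). The DMSO peaks were at Ddit3 (1885 bp), Trib3 (954 bp) and Ppp1r15b, the constitutive phosphatase subunit (1270 bp). The genes around IRE1 had 4 of 12 in thapsigargin and 0 of 12 in DMSO, the latter near the 1.29% of all genes. Those in thapsigargin were Bloc1s1, whose mRNA IRE1 cuts (1562 bp), Zbtb8os, which encodes archease of the ligase complex that joins the Xbp1 exons (1509 bp), the adaptor gene Nck1, which was in the PERK list as well (1206 bp), and Tmbim6 (1204 bp), which encodes an inhibitor of IRE1.

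The list for ATF6 and the site-1 and site-2 proteases had 7 of 16 in thapsigargin, against 15.1% of all genes. In DMSO it had 0 of 16, near the 1.29% of all genes. Mbtps2, the gene of the site-2 protease that cuts after the product of Mbtps1, led it with 1535 bp, and the others by width were Srebf2, a sterol factor freed by the same proteases (1523 bp), Nfya, a subunit of NF-Y (1422 bp), and Insig1 (1116 bp), which holds back the SREBP factors. Genes of both proteases thus carried a thapsigargin peak at an end. The remaining members of the CREB3 family, Creb3l3 and Creb3l4, had none, with the nearest thapsigargin centres 48.0 kb and 158 kb away. The target genes of ATF6 and XBP1 had 15 of 20 in thapsigargin, led by Herpud1, a factor of ER-associated degradation (2073 bp), and the chaperone or co-chaperone genes Calr (1609 bp), Dnajb11 (1607 bp) and Hsp90b1 (1589 bp). In DMSO 1 of these 20 had one, Herpud1 (1758 bp). All lists together held 56 genes, of which 32 (57.1%) had a thapsigargin peak at an end and 4 (7.14%) a DMSO peak, against the 15.1% and 1.29% of all genes. Several of these genes are known ATF4 targets, so the lists are no unbiased survey. Whether a peak at a listed gene lay nearer to an end of another gene was not checked.

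**Figure D5:**
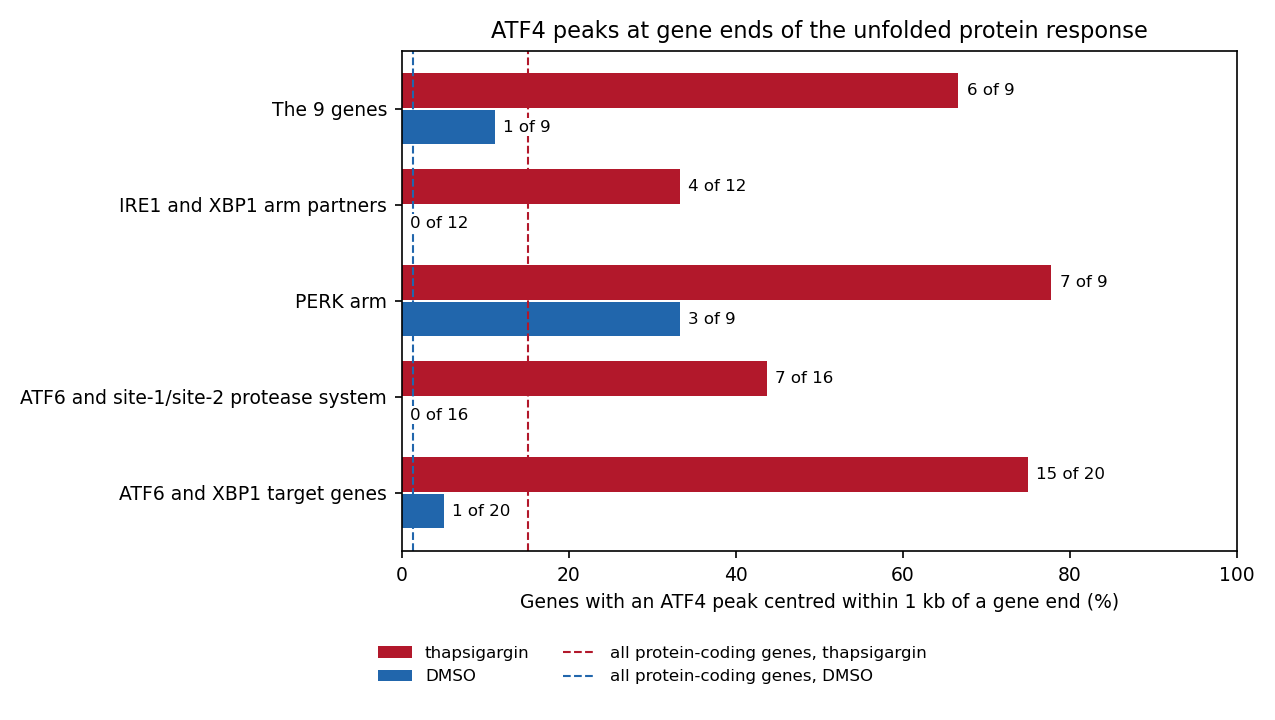
Share in percent of the 9 genes and of 4 lists of pathway genes whose nearest ATF4 peak centre lay at most 1 kb from an end, in thapsigargin (red) and DMSO (blue), with the counts beside the bars and the shares of all protein-coding genes as dashed lines (15.1% and 1.29%). In every list the thapsigargin bar is past the red line, and DMSO bars are present for the 9 genes (1 of 9), the PERK branch (3 of 9) and the target genes (1 of 20).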

How the data were processed

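CUT&Tag was done with a Vazyme kit, per the labels' protocols, on C2C12 cells in 20 samples (5 targets, 2 treatments, 2 replicates each); the other 8 groups were not used here. The labels do not say whether replicates came from separate cultures. Each deposited ATF4 list gives chromosome, start and end alone, without height or score. Per the submitters' processing notes, which state no roles, the tools were MACS2 2.2.7.1, Bowtie2 and Trim Galore 0.6.10 and the build was mm10. For the peak threshold, any control library and the way replicates were combined, the answer is not given in the sources used here, so a stricter threshold could not be set and the upper 50% of each list by width was tried in its place.

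Gene positions and names came from a RefSeq table of GRCm38.p6 (protein-coding genes of the autosomes and X), which gives no strand; starts came from the RefSeq promoter windows. Distances run from the peak centre, peaks sharing at least 1 bp overlapped, and coordinates count from 1. The genes, lists and motifs were chosen with earlier results of these data known, so nothing was tested. Named pathway genes were the 4 with the widest thapsigargin peak at an end in each list and any with a DMSO peak there; likeness to the gene with the widest end peak sums absolute log2 differences in end peak width and in peak number plus 1. Python 3.11.15, numpy 2.4.6, pandas 2.3.3 and matplotlib 3.10.9 were used, and the assignment of peaks to genes was tested on simulated data.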

Additional observations from a re-analysis of the deposited data

How the results depend on the processing

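No paired analysis was possible because the 2 replicates of a condition share 1 list, which also prevents leaving out a replicate. Of 32 alternative counts, 25 stayed within 1.5 times of the reported one. The 6 genes with a thapsigargin peak at an end became 3 with centres within 500 bp, where 12.5% of all genes had one. Ern1, Xbp1 and Atf6 then dropped out, although the Ern1 and Atf6 peaks cover the gene end. Under the other rules the count ranged from 5 to 7. The share of all genes then ranged from 7.56% (upper 50% of the list by width) to 21.1% (within 5 kb). The gene with a DMSO peak at an end (Xbp1) became 0 within 500 bp, 3 within 3 kb and 3 within 5 kb (with Atf6 and Creb3), and 2 by the peak edge (with Atf6). The shares of all genes were 0.962%, 1.73%, 2.03% and 1.41% in this order. The 6 overlapping DMSO peaks became 3 with at least 50% of both peaks shared and 3 with centres within 100 bp, rules that allow fewer matches by construction. Centres of all 799 pairs lay a median of 97 bp apart, so 3 of 6 within 100 bp was near the lists' share. For the rule of 50% of both peaks the share of all pairs is not given here. The gene start alone could be used for 7 of the 9 genes. Of these, 5 had a thapsigargin and 1 a DMSO peak, against 16.4% and 1.38% of all genes with a given start. Unknown read depth limits every statement that a peak is missing.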

Other observations

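Some pathway genes that were not counted had a thapsigargin peak within 10 kb of an end; those named were picked after their values had been seen. The nearest centres to an end of Hspa5, the gene of the chaperone BiP, lay 1.19 kb away in thapsigargin and 1.84 kb in DMSO. At Serpinh1, which encodes a collagen chaperone, they lay 3.03 kb away in thapsigargin and 6.91 kb in DMSO. At Edem1, a gene of ER-associated degradation, they lay 5.01 kb away in thapsigargin and 114 kb in DMSO, and at Nfyc, a subunit gene of NF-Y, 6.25 kb in thapsigargin and 377 kb in DMSO. Others were far from any peak: the nearest thapsigargin centre was 996 kb from Ern2, the paralog of Ern1, 1007 kb from Dnajc3, a PERK-inhibiting co-chaperone gene, and 292 kb from Hyou1, an ER chaperone gene.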
